A study of Danio rerio with 184 samples.

Results

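The cells described here are zebrafish lateral line hair cells in which a gene row listed as DLD (ENSDARG00000008785) had 2 or more unique molecular identifiers (UMIs, each marking 1 captured transcript), called DLD-rich cells. They were set against DLD-zero cells, in which the row had 0 UMIs. Both were drawn from the 182 cells of 184 that held at least 1000 UMIs outside the ERCC spike-in RNAs, over both genotypes. There were 51 DLD-rich and 82 DLD-zero cells, and 49 cells with 1 DLD UMI belonged to neither. All cells came from larvae carrying the transgene Tg[myo6b:actb1-EGFP], in which a promoter active in hair cells drives a fluorescent actin, and were taken at 6 days post fertilization from dissociated trunks and sorted for green fluorescence. One genotype was labelled Emx2-mutant, with the allele not described, and the other wild type; both carried the transgene. The cells lay on plates 2 and 4, read from the first digit of the well code, and single-cell libraries were made by mcSCRB-seq, a plate method that counts transcript 3′ ends. No animal, pool or clutch is named, so each group of cells is 1 sample: there is no replicate check and no test was made between the groups. Intervals on levels, ratios and shares cover counting error only. Those on the median of a gene list cover the spread between its member genes, and none covers the spread between animals.

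The row was chosen as deltaD, a Notch ligand, and the annotation goes against that reading. In the symbol table used here ENSDARG00000008785 is listed as DLD, in the capitals given to many zebrafish genes that carry a human-style symbol, and in people DLD is dihydrolipoamide dehydrogenase. The RefSeq gene table lists the zebrafish enzyme gene as dldh, with dld as a synonym, and a separate gene as dld. Another 2 rows are listed as DLL1, the human-style symbol of a Delta ligand, and together they are scarce: ENSDARG00000010791 had 12 UMIs in 7 cells and ENSDARG00000020219 had 4 UMIs in 4 cells. The level of DLD over all 182 cells was 231 CPM (UMIs scaled to a common library total, 95% exact Poisson interval 203 to 261). The genes of the dehydrogenase complexes it would serve ran from 10.2 CPM (OGDH) to 266 CPM (PDHB), so the level does not say which gene the row is. The cells are therefore named only by their DLD count, and nothing below is a statement about deltaD.

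Dihydrolipoamide dehydrogenase reoxidizes the lipoyl arms of the mitochondrial pyruvate, 2-oxoglutarate and branched-chain oxoacid dehydrogenase complexes and of the glycine cleavage system, and so serves several enzymes that feed or drive the tricarboxylic acid (TCA) cycle. Hair cells turn bundle deflection into transmitter release at ribbon synapses and rely on mitochondria and calcium buffers to do so. In the lateral line they arise in pairs from dividing progenitors under the control of Atoh1 and Notch, and Emx2 sets the orientation of their hair bundles.

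The cells were chosen by their DLD count, which is given as a description only. Of the cells that hold it, 49 had 1 UMI and lay just outside the DLD-rich group, 19 had 2 UMIs and lay just inside, 10 had 3 UMIs, 10 had 4 UMIs and the highest had 15 UMIs. DLD-rich cells made up 25 of 92 Emx2-mutant cells (27.2%, exact binomial interval 18.4 to 37.4%) and 26 of 90 wild-type cells (28.9%, 19.8 to 39.4%), and the DLD level was 233 CPM in Emx2-mutant cells and 229 CPM in wild-type cells. The genotypes overlapped. Between plates the share differed, with 38 of 92 cells on plate 2 (41.3%, 31.1 to 52.1%) and 13 of 90 cells on plate 4 (14.4%, 7.92 to 23.4%), although the DLD level differed less, at 245 CPM (210 to 283 CPM) on plate 2 and 202 CPM (157 to 255 CPM) on plate 4. Each genotype had 19 DLD-rich cells on plate 2, and plate 4 had 6 from Emx2-mutant and 7 from wild-type larvae. DLD-zero cells were 13 Emx2-mutant and 15 wild-type cells on plate 2, and 28 and 26 on plate 4.

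Depth moved with the split. DLD-rich cells held a median of 8043 UMIs (3288 to 33325) and DLD-zero cells 3906 UMIs (1000 to 15696). Within plates the medians were 8537 against 6542.5 UMIs on plate 2 and 5158 against 3252.5 UMIs on plate 4, and plate 4 held 54 of the 82 DLD-zero cells. Genes detected per cell were 1701 against 1032.5 at full depth, and 714 against 673 once each cell was thinned to 2000 UMIs, for which 51 DLD-rich and 77 DLD-zero cells were deep enough. Within plate 2 the thinned medians were 719 against 713 genes. The deepest cell, with 33325 UMIs and 6 DLD UMIs, held 7.70% of the DLD-rich total of 432678 UMIs; the DLD-zero total was 372245 UMIs. Ratios below are for all cells unless stated. Values within plates are added for many genes, and some for the 41 DLD-rich and 57 DLD-zero cells between 3000 and 10000 UMIs, whose median depths still differed (6756 against 4476 UMIs). A further value comes from setting the groups on cells thinned to 2000 UMIs, with 1 or more DLD UMIs in 55 cells against 0 in 122 cells. Ratios in that setting use the full counts of the cells. The 122 cells include the 77 deep enough DLD-zero cells and others that hold DLD at full depth. The 55 include cells with 1 DLD UMI at full depth. The part of this mixing in values nearer to 1 was not tested. The part of depth and plate in any difference was otherwise not tested.

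**Figure D1:**
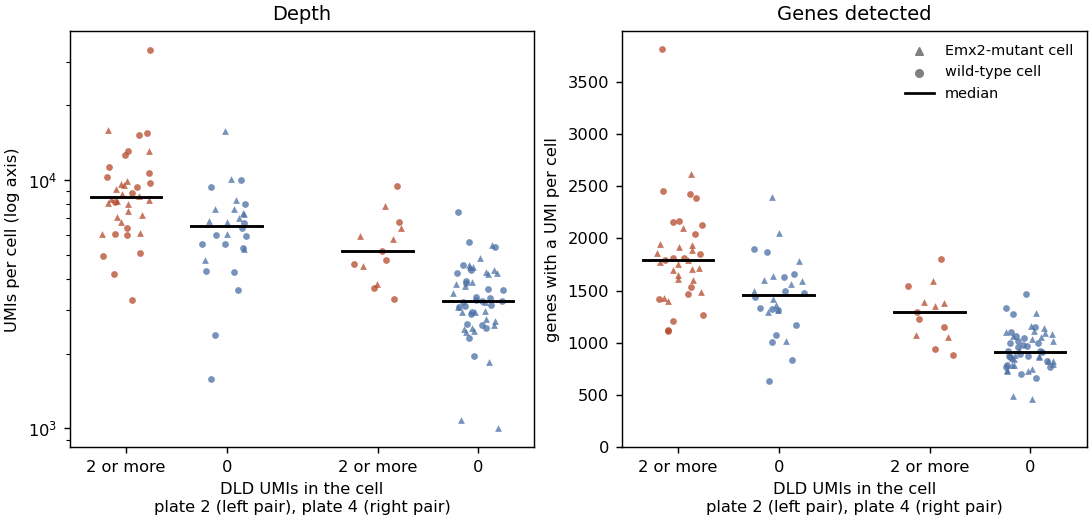
UMIs per cell (left, log axis) and genes with a UMI per cell (right) for cells with 2 or more DLD UMIs and cells with 0, plate 2 and plate 4 side by side; each point is a cell, triangles Emx2-mutant and circles wild type, and bars are medians. Cells with 2 or more DLD UMIs had the higher median on each plate, 8537 against 6542.5 UMIs on plate 2 and 5158 against 3252.5 UMIs on plate 4, and the groups overlapped on both.

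Both groups carried hair cell transcripts, several of them at similar levels. OTOF (ENSDARG00000020581), the otoferlin that releases transmitter at ribbon synapses, was at 1740.3 CPM in DLD-rich and 1829 CPM in DLD-zero cells, a ratio of 0.95 (95% exact conditional interval 0.86 to 1.06), and it had a UMI in 98% and 97.4% of thinned cells. The plasma membrane calcium pump ATP2B1 was at a ratio of 1.02 (0.94 to 1.11) and the bundle gene GIPC3 at 1.04 (0.90 to 1.21). Of the 18 measured rows (at least 10 UMIs over both groups) of the hair cell identity markers, 7 were higher and 11 lower in DLD-rich cells. Over all genes 46.6% were lower. Within plates 13 were lower on plate 2 and 9 on plate 4, where 42.7% and 51.5% of all genes were lower. Some members differed more between the groups, among them CHRNA9, gfi1aa and SLC17A8, whose values are given below. The calcium buffer pvalb8, the most abundant transcript, took a median of 21.2% of the UMIs of a DLD-rich cell (10.4 to 28.9%) and 24.2% of a DLD-zero cell (9.79 to 34.2%); its CPM ratio was 0.90 (0.89 to 0.90), or 0.91 within plate 2 and 0.88 within plate 4. The S100-type gene s100t stood on the other side at a ratio of 1.17 (1.15 to 1.2), but at 0.98 with the groups set on thinned cells.

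Marker lists of other cell types were detected in both groups, at levels that differed by list. Leukocyte genes summed to 2 UMIs in DLD-rich and 1 UMI in DLD-zero cells, pigment and endothelium genes to 3 and 12 UMIs, and no erythroid symbol matched a row. Neuron and glia genes summed to 129 CPM in DLD-rich and 150 CPM in DLD-zero cells, muscle genes to 1456 and 1641 CPM, and support cell genes to 3229 and 3259 CPM. Epidermal genes summed to 1761 CPM in DLD-rich and 1494 CPM in DLD-zero cells, with 17 and 16 of the 19 matched rows detected. Their range per cell was 261 to 4381 CPM in DLD-rich and 0 to 5248 CPM in DLD-zero cells. Their part in the results was not tested.

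**Figure D2:**
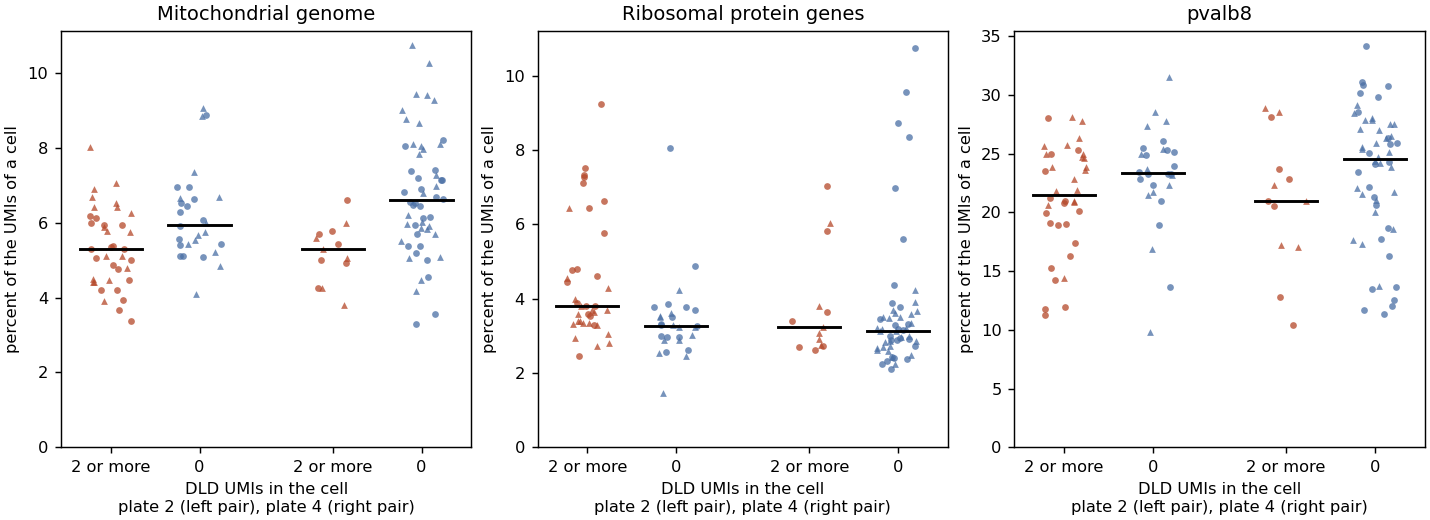
Share of the UMIs of each cell taken by the mitochondrial genome, by ribosomal protein genes and by pvalb8 (percent), for cells with 2 or more DLD UMIs and cells with 0 on plates 2 and 4; each point is a cell, triangles Emx2-mutant and circles wild type, and bars are medians. The mitochondrial median was lower in cells with 2 or more DLD UMIs on each plate, and the points of the groups overlapped in all panels.

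Transcripts of the mitochondrial genome, which encodes core subunits of the respiratory chain, were lower in DLD-rich cells. They made up a median of 5.28% of the UMIs of a DLD-rich cell (3.37 to 8.01%) and 6.44% of a DLD-zero cell (3.29 to 10.7%). The highest DLD-zero cells lay above every DLD-rich cell, and the lower ranges overlapped. All 12 rows had a lower CPM in DLD-rich cells, whereas 46.6% of the 5521 genes with at least 10 UMIs were lower, and 9 of the 12 were lower on both plates, against 21.3% of all genes. The median log2 ratio was -0.26 (interval over members -0.47 to -0.13), beside 0.06 over all genes. It was -0.27 on plate 2 and -0.36 on plate 4, where the prior count was scaled to group size, and -0.12 with the groups set on thinned cells. MT-CYB, cytochrome b, was at 5071 CPM in DLD-rich and 7012 CPM in DLD-zero cells, a ratio of 0.72 (0.68 to 0.77), but at 1.01 with the groups set on thinned cells. MT-CO2, a cytochrome oxidase subunit, had a ratio of 0.83 (0.81 to 0.86), MT-ATP6, a subunit of ATP synthase, 0.83 (0.81 to 0.86), and mt-nd4l, a complex I subunit, 0.72 (0.61 to 0.85).

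The nuclear genes of the same complexes lay closer to 1 when all cells were pooled. Of the 43 measured genes of this list, 14 were higher and 29 lower in DLD-rich cells, beside 46.6% of all genes lower. The log2 ratios had a median of -0.13 (-0.23 to -0.01). Within plates 26 were lower on plate 2 and 25 on plate 4, where 42.7% and 51.5% of all genes were lower. Succinate dehydrogenase, which belongs to both the TCA cycle and the respiratory chain, had its 4 subunit genes all lower when pooled over plates and genotypes. SDHA was at a ratio of 0.66 (0.47 to 0.94), SDHB at 0.82 (0.71 to 0.95), SDHC at 0.43 (0.25 to 0.73) and SDHD at 0.62 (0.40 to 0.95). SDHA and SDHD were singled out after their values were seen. SDHC was at 1.06 with the groups set on thinned cells, and at 1.04 in Emx2-mutant cells alone. Among cytochrome oxidase subunits COX7C was at 0.85 (0.78 to 0.93), COX5B (ENSDARG00000015978) at 1.06 (0.96 to 1.17) and cox6b1 at 2.19 (1.34 to 3.67), the last at 0.84 in Emx2-mutant cells alone. NDUFS1 of complex I was at 0.49 (0.27 to 0.88), but plate 2 alone gave 1.46 and plate 4 alone 0.27.

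Pooled over plates, the genes that encode the partners of dihydrolipoamide dehydrogenase did not move in 1 direction with DLD. Of 12 measured genes of the oxoacid dehydrogenase complexes and glycine cleavage, 6 were higher and 6 lower in DLD-rich cells, beside 53.4% higher over all genes. Their summed level was 1186 CPM in DLD-rich and 1174 CPM in DLD-zero cells, a ratio of 1.01 (0.89 to 1.15), and their median log2 ratio was -0.13 (-0.70 to 0.29). Within plates more of them were lower, with 4 higher and 8 lower on plate 2 and 4 higher and 7 lower on plate 4. Over all genes 42.7% were lower on plate 2 and 51.5% on plate 4. With the scaled prior their median was -0.45 on plate 2 and -0.12 on plate 4. For the pyruvate complex, PDHB was at 305 CPM in DLD-rich and 269 CPM in DLD-zero cells, a ratio of 1.14 (0.87 to 1.49), PDHX, which anchors the shared subunit, at 1.23 (0.83 to 1.84), and pdha1a, the catalytic alpha subunit, at 0.61 (0.39 to 0.94). PDHB was above 1 pooled but below 1 on each plate, at 0.98 on plate 2 and 0.53 on plate 4. For the branched-chain complex BCKDHB was at 1.07 (0.80 to 1.42), or 1.28 within plate 2 and 0.57 within plate 4. BCKDHA was at 1.5 (0.95 to 2.41), or 1.71 and 0.17, and ogdha of the 2-oxoglutarate complex at 0.52 (0.28 to 0.94), or 0.42 and 0.97. The kinases and phosphatases that switch these complexes off and on summed to 38 UMIs in DLD-rich and 40 UMIs in DLD-zero cells, a ratio of 0.82 (0.51 to 1.31).

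Of 14 measured TCA cycle genes, 4 were higher and 10 lower in DLD-rich cells, beside 46.6% of all genes lower. The median log2 ratio was -0.27 (-0.95 to 0.27). Within plates 8 were lower on plate 2 and 9 on plate 4, where 42.7% and 51.5% of all genes were lower. CS, the citrate synthase that opens the cycle, was at 71.6 CPM in DLD-rich and 158 CPM in DLD-zero cells, a ratio of 0.45 (0.28 to 0.71), with 0.50 within plate 2, 0.33 within plate 4 and 0.42 in cells between 3000 and 10000 UMIs. It was lower in DLD-rich cells in each of the 4 combinations of plate and genotype. MDH2, malate dehydrogenase, was at 0.83 (0.70 to 1.0) and SUCLG1, a succinyl-CoA ligase subunit, at 1.21 (0.88 to 1.69).

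Of 21 measured genes of glycolysis and pyruvate entry, 10 were higher and 11 lower in DLD-rich cells, beside 46.6% of all genes lower. Within plates 11 were lower on plate 2 and 10 on plate 4, where 42.7% and 51.5% of all genes were lower. With the scaled prior their median log2 ratio was -0.26 on plate 2 and 0.09 on plate 4. LDHA, which converts pyruvate and lactate, was at 111 CPM in DLD-rich and 244 CPM in DLD-zero cells, a ratio of 0.45 (0.31 to 0.65); plate 2 gave 0.46 and plate 4 gave 0.65. MPC1, a subunit of the mitochondrial pyruvate carrier, was at 404 CPM in DLD-rich and 618 CPM in DLD-zero cells, a ratio of 0.65 (0.54 to 0.80); the plates gave 0.72 (plate 2) and 0.46 (plate 4). After thinning, MPC1 had a UMI in 41.2% of DLD-rich cells (27.6 to 55.8%) and 63.6% of DLD-zero cells (51.9 to 74.3%). GAPDHS, the abundant glyceraldehyde phosphate dehydrogenase gene of these cells, was at 1.02 (0.94 to 1.1). The scarcer GAPDH was at 127 CPM in DLD-rich and 37.6 CPM in DLD-zero cells, a ratio of 3.38 (1.85 to 6.58); it was 7.39 in Emx2-mutant and 0.87 in wild-type cells alone, and 1.21 with the groups set on thinned cells. HK1, hexokinase, had 5 UMIs in DLD-rich and 16 UMIs in DLD-zero cells, a ratio of 0.27 (0.08 to 0.77), or 0.42 without its highest cell.

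Ribosomal protein genes were higher in DLD-rich cells on plate 2 and not on plate 4. Pooled over plates, 71 of 81 were higher and 10 lower, and the median log2 ratio came to 0.43 (0.31 to 0.48), beside 0.06 over all genes. The plate medians were 0.53 on plate 2, with 75 of 81 higher, and -0.01 on plate 4, with 39 higher and 42 lower, beside 56.5% and 40.8% of all genes higher. In cells between 3000 and 10000 UMIs the median was 0.22, and with the groups set on thinned cells 0.17. They made up a median of 3.68% of the UMIs of a DLD-rich cell (2.46 to 9.24%) and 3.20% of a DLD-zero cell (1.45 to 10.7%), so the single cells overlapped. Examples were RPS2 at a ratio of 1.19 (1.06 to 1.33), rps20 at 1.24 (1.1 to 1.40) and rps3 at 1.99 (1.35 to 2.97; 0.89 with the groups set on thinned cells), with rpl32, which has the most UMIs of the list, at 1.05 (0.95 to 1.17).

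**Figure D3:**
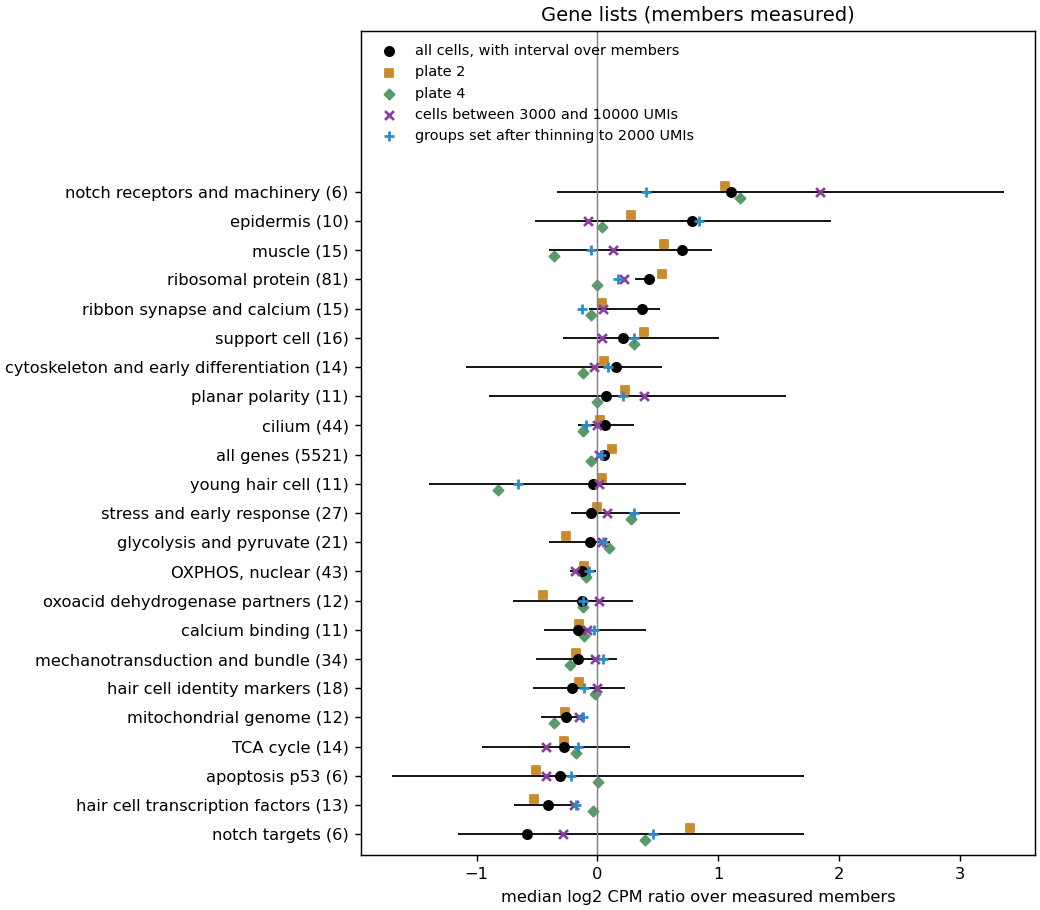
Median log2 CPM ratio (cells with 2 or more DLD UMIs over cells with 0) of each gene list with at least 6 measured members, with the interval over members as a line; squares and diamonds are plates 2 and 4 with a scaled prior, crosses cells between 3000 and 10000 UMIs, and plus signs groups set on thinned cells. The mitochondrial genome lies left of 0 under all of these settings, and the ribosomal protein median is 0.53 on plate 2 and -0.01 on plate 4.

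Notch genes were sparse, and their pooled values depended on plate. Of the ligands, dll4 was at 74 CPM in DLD-rich and 34.9 CPM in DLD-zero cells, a ratio of 2.12 (1.08 to 4.4), or 1.32 within plate 2 and 5.82 within plate 4, and jag2b was at 111 and 99.4 CPM, a ratio of 1.12 (0.71 to 1.76), or 0.79 within plate 2 and 1.44 within plate 4. The 2 rows listed as DLL1 had 4 UMIs in DLD-rich and 7 UMIs in DLD-zero cells, and 2 and 1 UMIs. Among receptors and processing genes, 5 of 6 measured members were higher in DLD-rich cells, beside 53.4% of all genes. Within plates 4 were higher on plate 2 and 5 on plate 4, where 56.5% and 40.8% of all genes were higher, and 3 were higher pooled and on both plates. LFNG, a glycosyltransferase that modifies Notch, had 17 of its 25 DLD-rich UMIs in 1 cell and was at a ratio of 5.38 with that cell and 1.74 without it. The protease gene adam10a was at 3.01 (1.18 to 9.12) on 21 and 6 UMIs and at 1.61 without its highest cell, NEURL1 at 1.40 (0.72 to 2.79), or 0.73 within plate 2 and 5.82 within plate 4, and the gamma-secretase gene APH1B at 0.79 (0.52 to 1.21), or 0.62 and 1.62.

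Among Notch targets of the her4 cluster, her4.2 lay below 1 pooled and above 1 within each plate, and the other members did not share that pattern. These near-identical neighbouring genes can share reads, so single members are uncertain. her4.2, a repressor induced by Notch, was at 57.8 CPM in DLD-rich and 80.6 CPM in DLD-zero cells, a ratio of 0.72 (0.40 to 1.26), yet the ratio was 4.12 on plate 2 and 1.52 on plate 4, and 1.73 when the 4 combinations of plate and genotype were weighted together (Mantel-Haenszel). In DLD-zero cells 29 of its 30 UMIs lay on plate 4, where 54 of the 82 cells were, and in DLD-rich cells 16 of 25 UMIs came from the 6 Emx2-mutant cells of plate 4, 12 of them from 1 cell. The ratio on plate 4 without that cell was not computed. On plate 2 the ratio rests on 3 Emx2-mutant and 5 wild-type UMIs in DLD-rich cells against 1 UMI in DLD-zero cells. Wild-type cells of plate 4 stood the other way, with 1 UMI (26.5 CPM) in DLD-rich and 15 UMIs (160 CPM) in DLD-zero cells. her4.5 was at 50.8 CPM in DLD-rich and 116 CPM in DLD-zero cells, a ratio of 0.44 (0.25 to 0.75), with 0.52 on plate 2, 1.19 on plate 4 and 1.1 weighted. her4.1 was at 3.87 (1.28 to 15.7), with 15 of 18 DLD-rich UMIs in wild-type cells of plate 2 and 9 of them in 1 cell, and at 0.96 in Emx2-mutant cells alone; it lay above 1 on both plates, at 4.38 and 1.29. Without the single highest cell the pooled ratio of her4.2 was 0.92, of her4.1 1.99, of her4.5 0.67 and of HEY1 0.96. Among the others, her15.1 was at 1.61 (0.64 to 4.39), HEY1 at 0.60 (0.23 to 1.51), or 1.03 within plate 2 (on 2 and 1 UMIs) and 1.51 within plate 4, and her4.4 at 0.57 (0.20 to 1.53). The list of 6 measured targets had a median log2 ratio of -0.59 pooled and 0.59 weighted.

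EMX2 followed the same pattern. It was at 122 CPM in DLD-rich and 175 CPM in DLD-zero cells, a ratio of 0.70 (0.48 to 1.02), with 1.18 on plate 2, 1.07 on plate 4 and 1.15 weighted. Plate 4 held more of it in both groups, up to 436 CPM in DLD-rich and 387 CPM in DLD-zero Emx2-mutant cells, against 126 and 89.3 CPM in those of plate 2. Wild-type cells had 159 CPM in DLD-rich and 160 CPM in DLD-zero cells on plate 4, and 56.7 and 58.8 CPM on plate 2, so within each genotype and plate the groups overlapped. The labels do not describe the allele, and transcript counts do not show whether the protein is made.

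ATOH1, whose product commits progenitors to the hair cell fate, was lower in DLD-rich cells in 3 of 4 combinations of plate and genotype. It had 25 UMIs in DLD-rich and 58 UMIs in DLD-zero cells, or 57.8 and 156 CPM, a ratio of 0.37 (0.22 to 0.60). The ratio was 0.47 on plate 2, 0.23 on plate 4, 0.41 in cells between 3000 and 10000 UMIs and 0.62 (0.37 to 0.99) with the groups set on thinned cells. On plate 2 the direction rested on wild-type cells, at 51.5 CPM in DLD-rich and 235 CPM in DLD-zero cells, with 16 of the 20 DLD-zero UMIs in 1 cell. Emx2-mutant cells of that plate had 72 CPM in DLD-rich and 39.7 CPM in DLD-zero cells. On plate 4 ATOH1 was at 58.2 CPM in DLD-rich and 183 CPM in DLD-zero Emx2-mutant cells, and at 26.5 and 182 CPM in wild-type cells, and without the single highest cell the ratio over all cells was 0.50. A UMI of ATOH1 was seen in 18 of 51 DLD-rich cells (35.3%) and 26 of 82 DLD-zero cells (31.7%) at full depth, and in 7.84% (2.18 to 18.9%) and 22.1% (13.4 to 33%) after thinning.

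The list of young hair cell genes, which includes ATOH1, had 5 higher and 6 lower of 11 measured, beside 46.6% of all genes lower. Its log2 median was -0.04 (-1.4 to 0.73). Within plates 5 were lower on plate 2 and 7 on plate 4, where 42.7% and 51.5% of all genes were lower. With the scaled prior its median was 0.04 on plate 2 and -0.83 on plate 4. CDKN1B, a brake on the cell cycle, was at 134 CPM in DLD-rich and 247 CPM in DLD-zero cells, a ratio of 0.54 (0.38 to 0.76), with 0.55 on each plate. MYT1 (ENSDARG00000074030), a zinc finger factor, was at 1.69 (1.04 to 2.79) pooled, but 52 of its 53 DLD-rich and all 27 DLD-zero UMIs lay on plate 2, where the ratio was 0.99. ISL2 was at 0.98 (0.45 to 2.18), and cdkn1ca at 1.09 pooled, 1.1 within plate 2 and 0.24 within plate 4. GADD45G, a growth arrest gene, had 18 and 9 UMIs and a ratio of 8.76 on plate 2 against 0.32 on plate 4. ISL1, a LIM homeobox factor, was at 0.92 (0.54 to 1.56) pooled; plate 2 alone gave 2.58 and plate 4 alone 0.22.

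**Figure D4:**
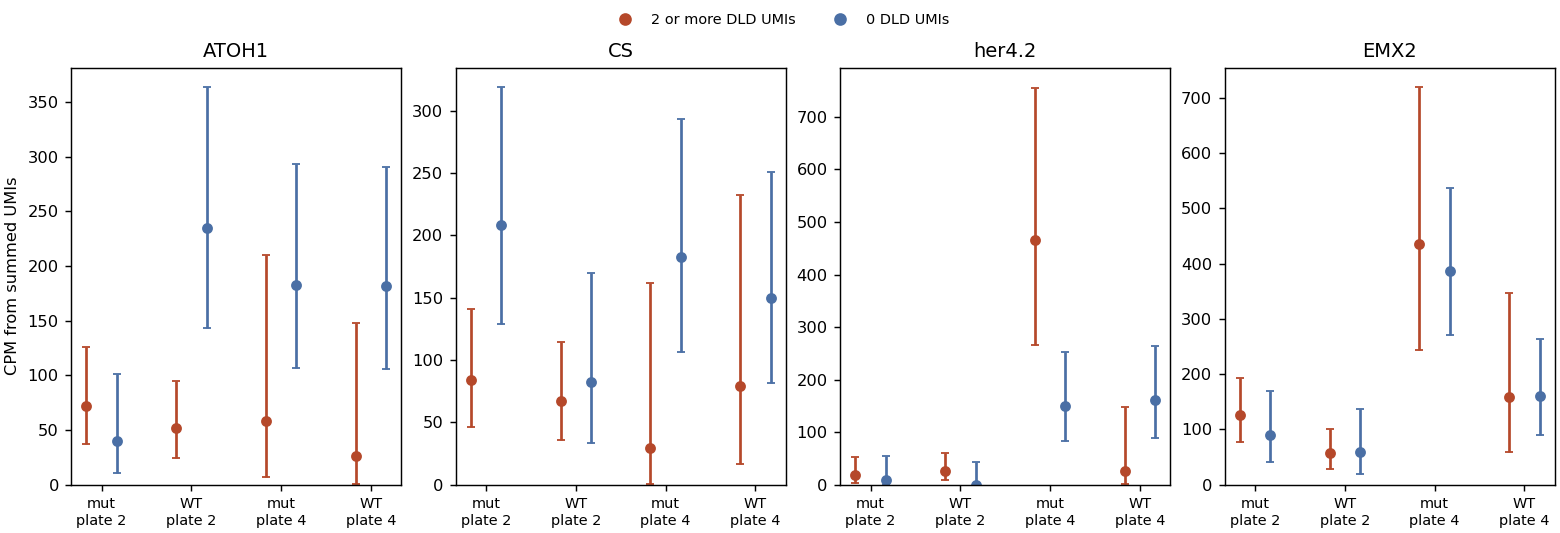
CPM from summed UMIs, with exact Poisson 95% intervals, of ATOH1, CS, her4.2 and EMX2 in cells with 2 or more DLD UMIs and cells with 0, for each genotype (mut, Emx2-mutant; WT, wild type) and plate. CS is lower in cells with 2 or more DLD UMIs in all 4 combinations and ATOH1 in 3 of 4. On plate 4 her4.2 is at 466 against 151 CPM in Emx2-mutant cells and at 26.5 against 160 CPM in wild-type cells, and the EMX2 points of the groups lie within each other's intervals in all 4.

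Hair cell transcription factors were mostly lower in DLD-rich cells, 11 of 13 measured against 46.6% of all genes, and the other 2 were higher; 9 of 13 were lower on plate 2 and 7 of 13 on plate 4, where 42.7% and 51.5% of all genes were lower; the list had a median of -0.41 (-0.69 to -0.17) on the log2 scale. The list's median was -0.52 on plate 2 and -0.04 on plate 4 with the scaled prior, -0.19 in cells between 3000 and 10000 UMIs and -0.18 with the groups set on thinned cells. gfi1aa, a repressor needed by hair cells, was at 314 CPM in DLD-rich and 457 CPM in DLD-zero cells, a ratio of 0.69 (0.55 to 0.87). The homeobox gene HMX3 was at 0.37 (0.18 to 0.70) on 14 and 33 UMIs, and six2b at 0.60 (0.36 to 0.98), with 1.19 on plate 4. EYA1, a transcriptional coactivator, was at 379 CPM in DLD-rich and 296 CPM in DLD-zero cells, a ratio of 1.28 (1.0 to 1.65).

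Of 34 measured mechanotransduction genes, 15 were higher and 19 lower in DLD-rich cells, beside 46.6% of all genes lower. Their log2 median was -0.16 (-0.51 to 0.16). Within plates 20 were lower on plate 2 and 20 on plate 4, where 42.7% and 51.5% of all genes were lower. Pooled and on both plates 16 were lower, against 21.3% of all genes. MYO6 (ENSDARG00000042141), the myosin that anchors the bundle, was at 532 CPM in DLD-rich and 411 CPM in DLD-zero cells, a ratio of 1.29 (1.05 to 1.6). The bundle genes GRXCR1 and LOXHD1 (ENSDARG00000094738) were at 0.43 (0.23 to 0.77) and 0.45 (0.25 to 0.81), GRXCR1 at 0.29 within plate 2 and 1.0 within plate 4, and LOXHD1 at 1.13 with the groups set on thinned cells. Of 15 synaptic and calcium genes, 11 were higher in DLD-rich cells pooled (53.4% of all genes), but 8 on plate 2 and 6 on plate 4, and their summed level was at a ratio of 0.96 (0.88 to 1.04). CHRNA9, a subunit of the receptor for efferent acetylcholine, was at 238 CPM in DLD-rich and 449 CPM in DLD-zero cells, a ratio of 0.53 (0.41 to 0.68), with 0.62 on plate 2, 0.37 on plate 4 and 0.67 (0.52 to 0.85) with the groups set on thinned cells. SLC17A8, the vesicular glutamate transporter, was at 2.06 (1.2 to 3.67) but at 0.86 with the groups set on thinned cells.

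Over all genes with at least 20 UMIs, 415 of 3582 (11.6%) were at least 2-fold higher in DLD-rich cells and 264 (7.37%) at least 2-fold lower. Of these, 108 (3.02%) and 57 (1.59%) were also past 2-fold in the same direction on each plate. All of these counts add a prior of 1 UMI to each group, whatever its size. On plate 4 DLD-rich cells held 72073 UMIs and DLD-zero cells 186464 UMIs. A gene without a UMI on plate 4 therefore counts as past 2-fold higher there, so the 108 can include genes with few or no UMIs on that plate. With the groups set on thinned cells the counts were 243 (6.78%) and 200 (5.58%). By the naming rule, which asked for the same direction in each plate and genotype and for single cells and thinning to leave the difference in place, 78 genes were higher and 35 lower, and the 12 with the interval bound farthest from 1 on each side are drawn in the plot of naming-rule genes. Having met conditions on these same cells, they are a description. The rule set no minimum count within a plate, so a direction on plate 4 can rest on few UMIs. On plate 4 krt91 was at 1.29 with an interval of 0.02 to 24.8, and LETM2 and nudt17 were each at 2.59 with an interval of 0.03 to 203.

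The neuropeptide gene vipb had the most UMIs among the higher genes, at 1239 CPM in DLD-rich and 314 CPM in DLD-zero cells, a ratio of 3.94 (3.22 to 4.86). Of its 536 DLD-rich UMIs 206 came from 1 cell, without which the ratio was 2.52, and it was 2.85 on plate 2, 1.18 on plate 4, 1.34 in cells between 3000 and 10000 UMIs and 1.26 with the groups set on thinned cells. sowahab, an ankyrin repeat gene, was at 488 CPM in DLD-rich and 185 CPM in DLD-zero cells, a ratio of 2.63 (2.0 to 3.5), with 2.47 on plate 2, 4.66 on plate 4, 2.15 in cells between 3000 and 10000 UMIs and 2.29 with the groups set on thinned cells. It was unevenly spread, with 56 of its 67 UMIs in DLD-rich wild-type cells of plate 4 in 1 cell, and in Emx2-mutant cells of that plate it stood at 145 CPM in DLD-rich and 258 CPM in DLD-zero cells. RAB3A (ENSDARG00000056347), a small GTPase of synaptic vesicles, was at 3.87 (2.05 to 7.95), and the keratins krt91 and krt1-19e at 4.0 (2.35 to 7.2) and 3.8 (2.0 to 7.81), which were 2.03 and 2.17 without the highest cell and 1.29 each within plate 4. With the groups set on thinned cells RAB3A was at 3.72, krt91 at 3.28 and krt1-19e at 2.71.

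The other higher genes were scarce in DLD-zero cells. LETM2, a relative of the mitochondrial protein LETM1, had 34 UMIs in 17 DLD-rich cells and 3 UMIs in 3 DLD-zero cells, a ratio of 9.75 (3.07 to 49.6), or 24.1 in Emx2-mutant cells, 3.47 in wild-type cells and 2.09 (1.11 to 3.95) with the groups set on thinned cells. PFDN6, a prefoldin chaperone subunit, had 30 and 3 UMIs, a ratio of 8.60 (2.68 to 44.1), with 8.39 in cells between 3000 and 10000 UMIs and 3.52 with the groups set on thinned cells. The Nudix gene nudt17, the calcineurin subunit PPP3CC, the deubiquitinase OTUD7B, the splicing factor SF3A1 and BHMT, which remethylates homocysteine, had ratios between 5.16 and 7.31, which came to between 1.42 and 2.12 with the groups set on thinned cells.

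Lower genes included a pair of subunits of Mediator, the bridge between transcription factors and RNA polymerase II. MED19 (ENSDARG00000009472) had 6 UMIs in DLD-rich and 33 UMIs in DLD-zero cells, a ratio of 0.16 (0.05 to 0.38), and MED30 had 15 and 46 UMIs, a ratio of 0.28 (0.15 to 0.51); with the groups set on thinned cells they were at 0.52 and 0.45. After thinning, MED30 had a UMI in 0 of 51 DLD-rich cells, which allows a share of up to 6.98%, and in 13% of DLD-zero cells (6.41 to 22.6%). The unnamed ENSDARG00000081369 had the most UMIs, at 393 CPM in DLD-rich and 878 CPM in DLD-zero cells, a ratio of 0.45 (0.37 to 0.54), with 0.49 on plate 2, 0.59 on plate 4 and 0.67 (0.56 to 0.80) with the groups set on thinned cells. erich2 was at 0.28 (0.16 to 0.49), the inflammatory signalling regulator TNIP1 at 0.28 (0.15 to 0.48) and 0.47 without its highest cell, the lysosomal lipase LIPA at 0.32 (0.17 to 0.58) and the methionine sulfoxide reductase MSRB1 at 0.30 (0.13 to 0.60). FAM114A2, MEIOB, tmem79b and the kinase MKNK2 had ratios between 0.18 and 0.29. With the groups set on thinned cells MSRB1 was at 0.85 (0.46 to 1.49), erich2 at 0.57, TNIP1 at 0.46, LIPA at 0.48, FAM114A2 at 0.30, MEIOB at 0.58, tmem79b at 0.40 and MKNK2 at 0.61. Of all 35 lower genes of the rule, 35 kept their direction there and 9 stayed past 2-fold, and of the 78 higher genes 72 and 22 did. Over all genes 5.58% were at least 2-fold lower and 6.78% at least 2-fold higher in that setting. The rule picked these genes on the same cells, and the 77 deep enough DLD-zero cells stay in the 0 group there. The counts are therefore a description and not a separate check.

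**Figure D5:**
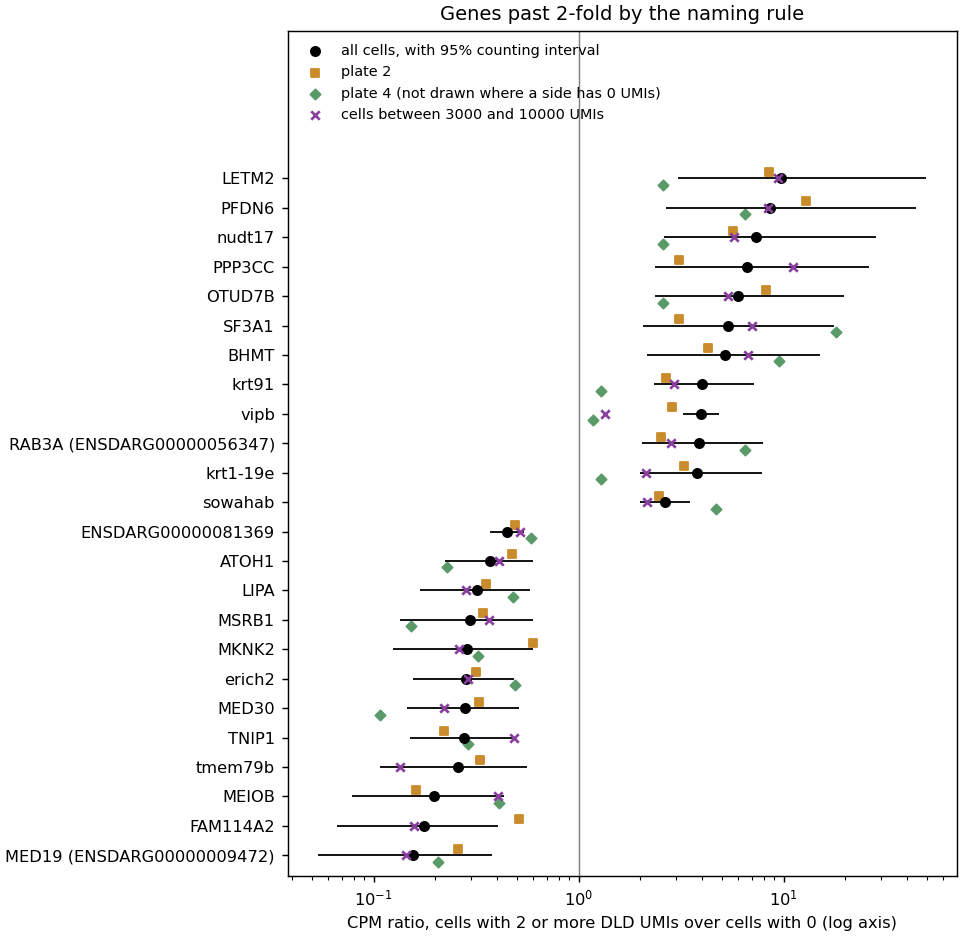
CPM ratio (cells with 2 or more DLD UMIs over cells with 0, log axis) of the 12 higher and 12 lower genes of the naming rule; circles are all cells with 95% counting intervals, squares and diamonds plates 2 and 4, and crosses cells between 3000 and 10000 UMIs. Plate 4 is not drawn for PPP3CC, FAM114A2 and tmem79b, where a group had 0 UMIs there; the points drawn for plates lie on the side of 1 that the rule required, and vipb, at 3.94 in all cells, is at 1.34 in cells between 3000 and 10000 UMIs.

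Among the remaining lists, support cell genes had 9 higher and 7 lower of 16, beside 53.4% of all genes higher. Within plates 10 were higher on plate 2 and 9 on plate 4. GLUL (ENSDARG00000099776), glutamine synthetase, was at 134 CPM in DLD-rich and 61.8 CPM in DLD-zero cells, a ratio of 2.17 (1.32 to 3.69), with 2.25 on plate 2, 2.16 on plate 4 and 1.16 with the groups set on thinned cells. The adhesion gene epcam was at 0.82 (0.70 to 0.96), FGF10 (ENSDARG00000100475) at 0.66 (0.54 to 0.80), and FNDC7 at 2.09 (1.09 to 4.21), with 0.75 on plate 2, 38.8 on plate 4 and 1.31 without its highest cell. The epidermal keratin krt5 was at 1.01 (0.89 to 1.15) and the muscle calcium pump atp2a1 at 0.76 (0.66 to 0.87), or 1.05 within plate 2 and 0.76 within plate 4. Over their lists, 8 of 10 measured epidermal and 10 of 15 measured muscle genes were higher in DLD-rich cells, beside 53.4% of all genes. On plate 2 these were 7 and 11, and on plate 4 they were 6 and 6, where 56.5% and 40.8% of all genes were higher. Cilium genes had 23 higher and 21 lower of 44, planar polarity genes 6 and 5 of 11, stress genes 12 and 15 of 27 and cytoskeletal genes 9 and 5 of 14. On plate 2 the higher counts of these 4 lists were 23, 7, 13 and 8, and on plate 4 they were 17, 5, 16 and 5. Calcium-binding genes had 5 higher and 6 lower of 11, apoptosis genes 2 and 4 of 6 and cell cycle genes 1 and 3 of 4. Their higher counts were 3, 1 and 1 on plate 2 and 5, 3 and 0 on plate 4. The shares of all genes higher are those given above, 53.4% pooled, 56.5% on plate 2 and 40.8% on plate 4. Ionocyte and mucous cell genes summed to 363 CPM in DLD-rich and 352 CPM in DLD-zero cells.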

How the data were processed

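Single sorted cells were sequenced by mcSCRB-seq, per the labels' protocols. The authors deposited raw UMI counts, whole numbers for each gene in each cell, without normalization. Reads were aligned with STAR 2.6.0a to GRCz11, per the submitters' processing notes; how reads were assigned to genes was not given in the sources. There are 12354 gene rows, of which 11707 matched a symbol, and 184 barcodes, 0 shared by the plates. ERCC rows (5.15% of UMIs) stayed out of library sizes. Doublets were not called.

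UMIs were summed per group and scaled to CPM. Ratio intervals are Clopper-Pearson on the conditional count, CPM intervals Poisson, shares binomial, at 95%. A list's median uses members with at least 10 UMIs and a prior of 1 UMI per group, and was given only for 3 or more members, a limit set after the values were seen. With unequal groups this prior biases the ratios of genes with few UMIs. The shift is downward on plate 2, where the DLD-rich total is the larger, and upward on plate 4, where it is the smaller. Over all genes the median log2 ratio was 0.04 on plate 2 and 0.33 on plate 4. With a prior in proportion to UMIs, also added later, it was 0.12 and -0.06. Plate medians therefore use the latter prior. The members, the lists, the naming rule and most alternative settings were chosen with earlier results of these data known. The lists of oxoacid dehydrogenase complexes, their kinases, the TCA cycle and glycolysis were added after the data were seen, and S6 kinase genes caught by the ribosomal pattern were removed.

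Genes named are DLD, EMX2, measured Notch ligands and targets, and some of the measured young hair cell genes. Also named are up to 3 members of each other list by UMIs and by ratio (at least 20 UMIs). A further set is up to 12 genes a side with a ratio of at least 2 or at most 0.5. The last needed 30 UMIs, a UMI in 10% of cells, 1 direction in each plate and genotype, and 1.5-fold without the highest cell and after thinning to 2000 UMIs. Directions were first computed with the prior and passed 94 higher genes; they were changed to plain CPM after the values were seen, which left 78. The lower count was 35 both ways. The ratio step was tested on simulated data. Alternatives used edgeR 4.0.16 and DESeq2 1.42.0 scaling factors only; the rest used Python 3.11.15, numpy 2.4.6, scipy 1.17.1 and pandas 2.3.3.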

Additional observations from a re-analysis of the deposited data

Results flagged for a closer look

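ISL1 was picked out because its ratio differed between the plates, with counting intervals on opposite sides of 1. DLD-rich over DLD-zero cells stood at 2.58 on plate 2 and 0.216 on plate 4. The difference was not tested, since cells are not replicates. On plate 2, 22 of its 30 DLD-rich UMIs came from wild-type cells, 10 of them from 1 cell. On plate 4 ISL1 had 2 UMIs in DLD-rich and 24 UMIs in DLD-zero cells.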

How the results depend on the processing

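The number of genes at least 2-fold higher was 415, and with the groups set on cells thinned to 2000 UMIs it was 243. On plate 4 alone it was 724 (489 with the scaled prior), and with a gene minimum of 50 or 10 UMIs 82 or 872. For 264 genes at least 2-fold lower these were 432 on plate 4 (748 with the scaled prior), 36 and 694 by minimum, and 443 in Emx2-mutant and 451 in wild-type cells alone. The ribosomal protein median of 0.43 (log2) was 0.50 on plate 2 (0.53 with the scaled prior) and 0.067 on plate 4 (-0.0068), 0.31 with each cell thinned, 0.22 in cells between 3000 and 10000 UMIs, 0.17 with groups set on thinned cells, 0.30 by mean of per-cell CPM, 0.48 by DESeq2 size factors, 0.18 without cells under 20% pvalb8 and 0.31 for 1 or more UMIs against 0. The mitochondrial genome median was -0.12 with groups set on thinned cells. Hair cell transcription factors were at 0.091 on plate 4 (-0.040 scaled) and -0.094 with each cell thinned. Synaptic genes were at 1.06 in wild-type cells alone, 0.59 with each cell thinned and -0.13 with groups set on thinned cells. Muscle genes were at 0.97 for 3 or more DLD UMIs, dehydrogenase kinases at -0.81 on plate 4 (scaled) and glycolysis genes at 0.16 on plate 4. Over all list medians and settings, 531 values stayed inside the interval over members and 21 did not. For lists with few members that interval spans the full range of members, so these counts cannot show that a median held. Notch targets, at -0.59 pooled and 0.59 weighted, count as inside their interval of -1.15 to 1.71. Genes past 2-fold changed direction for her4.1 (0.96), SDHC (1.04) and cox6b1 (0.84) in Emx2-mutant cells alone; for FNDC7 (0.92) and GAPDH (0.87) in wild-type cells alone; for FNDC7 (0.75) and NDUFS1 (1.46) on plate 2; for her4.5 on plate 4 (1.19) and weighted (1.1); and for LOXHD1 (ENSDARG00000094738) (1.13), SLC17A8 (0.86) and SDHC (1.06) with groups set on thinned cells. The cause was not tested. Depth limits the precision for genes with few UMIs, and a cell with 0 DLD UMIs at the median of 3906 UMIs cannot be called free of the transcript. No paired analysis was possible because the replicate numbers follow accession order and no animal is named.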

Other observations

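Outside the lists, 2 further named genes with many UMIs that met the naming rule were chosen after their values were seen. ppdpfa was at 328 CPM in DLD-rich and 148 CPM in DLD-zero cells, a ratio of 2.22 (1.62 to 3.09), or 1.55 with the groups set on thinned cells. smdt1b, whose human counterpart is the EMRE subunit of the mitochondrial calcium uniporter, was at 233 CPM in DLD-rich and 80.6 CPM in DLD-zero cells, a ratio of 2.90 (1.91 to 4.51), or 1.35 (0.98 to 1.85) with the groups set on thinned cells. PCNA, a replication clamp from the cell cycle list, also picked after its values were seen, had 0 UMIs in DLD-rich and 12 UMIs in DLD-zero cells.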
